A study of Mus musculus with 30 samples.

Results

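Gab1, Smarca5, Usp38 and Inpp4b are 4 neighbouring genes on mouse chromosome 8, and they were described here among the 55401 genes of each count table. Gab1 was chosen by its measured exon and intron counts, which differed between cells expressing catalytically dead SRCAP (cdSRCAP) and cells expressing wild-type SRCAP (wtSRCAP), and the others as its neighbours. That difference is therefore given as a description without a test. The questions were whether the difference was shared by the neighbours of Gab1, and what indole-3-acetic acid (IAA), an auxin, did to the 4 genes.

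Nuclear RNA was sequenced from mouse embryonic stem (ES) cells in 15 conditions of 2 biological replicates each, 30 libraries in all. SYAT cells derive from 1 homozygous clone of CGR8 ES cells in which endogenous SRCAP, the ATPase that loads the histone variant H2A.Z, carries YPet and an auxin-inducible degron (AID). That clone was transduced with OsTir1, so that 500 µM IAA degrades SRCAP, and sorted for cells that lost YPet under IAA. SYAT controls were kept in auxinole, an antagonist of the auxin receptor, and the time course covered 2, 4, 6 and 8 h of IAA. SYAT cells with a mitotic degron reporter (mCherry-MD) were sorted by Hoechst and mCherry into early G1 (EG1) and late G1 (LG1), with 1 h of IAA or control treatment. The wtSRCAP and cdSRCAP lines were each 1 clone of SYAT cells with a doxycycline-inducible SRCAP-mCherry. They received doxycycline at 1 µg/mL for 24 h, and IAA for 4 h or auxinole as control, so both lines carried the degron, OsTir1 and doxycycline. Cells of both lines were then sorted for a high and matched mCherry signal before RNA was taken. CGR8 cells, without the degron, were the control for 4 h of IAA itself. With 1 clone per line, the SRCAP variant and the clone cannot be told apart.

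GAB1 is a docking adaptor downstream of receptor tyrosine kinases such as MET and EGFR. Once phosphorylated, it binds the phosphatase SHP2 (encoded by Ptpn11) and the regulatory subunit of PI3-kinase, and so carries signals to the ERK and AKT pathways. SMARCA5, also called SNF2H, is the ATPase of ISWI chromatin remodelling complexes. USP38 is a ubiquitin-specific protease. INPP4B is a lipid phosphatase that removes a phosphate from phosphatidylinositol 3,4-bisphosphate, a product of PI3-kinase signalling. In ES cells, FGF and ERK signalling favours exit from the naive state, and SHP2 takes part in it.

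Gab1 (ENSMUSG00000031714.9) lies at chr8:80764438-80880519 on the minus strand of GRCm38 and spans 116.1 kb. Smarca5 (ENSMUSG00000031715.14, chr8:80698507-80739497, minus strand) ends 24.9 kb from Gab1. Usp38 (ENSMUSG00000038250.9, chr8:80980733-81014928, minus strand) lies 100.2 kb away on the other side, upstream of Gab1. Inpp4b (ENSMUSG00000037940.17, chr8:81342556-82127914, plus strand) is 462.0 kb away and spans 785.4 kb. The Gab1 body also holds the processed pseudogene Gm7997 and the antisense gene Gm31105 on the opposite strand. Whether the counting used strand is not given in the sources used here, so reads of Gab1 and of these genes may not be separated. Smarca5 has a pseudogene copy, Smarca5-ps, on chromosome 4, with which it may share reads.

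The 250 bases upstream of each start site are shown because SRCAP loads H2A.Z at promoters, and they let the promoter of Gab1 be set beside those of its neighbours. They are RefSeq sequences of GRCm38.p6, all 4 genes matched, and each is written 5′ to 3′ on the gene's own strand. Capitals mark the GC box, GGGCGG or its reverse complement CCGCCC, searched on both strands and overlapping no other motif.
Gab1, chr8:80880520-80880769: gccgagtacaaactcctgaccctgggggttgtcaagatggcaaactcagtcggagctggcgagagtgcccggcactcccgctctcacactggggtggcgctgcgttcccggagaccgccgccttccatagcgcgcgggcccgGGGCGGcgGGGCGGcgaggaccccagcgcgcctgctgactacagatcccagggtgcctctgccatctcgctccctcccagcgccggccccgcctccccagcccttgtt
Smarca5, chr8:80739460-80739709: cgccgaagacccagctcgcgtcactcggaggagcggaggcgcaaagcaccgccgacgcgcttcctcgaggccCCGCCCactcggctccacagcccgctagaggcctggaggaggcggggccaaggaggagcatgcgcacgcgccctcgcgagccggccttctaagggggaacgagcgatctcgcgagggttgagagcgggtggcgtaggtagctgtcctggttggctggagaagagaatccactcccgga
Usp38, chr8:81014907-81015156: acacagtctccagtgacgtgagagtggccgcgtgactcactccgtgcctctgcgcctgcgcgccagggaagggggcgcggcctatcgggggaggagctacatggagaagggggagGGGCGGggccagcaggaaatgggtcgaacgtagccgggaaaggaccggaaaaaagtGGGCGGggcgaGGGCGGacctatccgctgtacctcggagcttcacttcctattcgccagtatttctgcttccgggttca
Inpp4b, chr8:81342312-81342561: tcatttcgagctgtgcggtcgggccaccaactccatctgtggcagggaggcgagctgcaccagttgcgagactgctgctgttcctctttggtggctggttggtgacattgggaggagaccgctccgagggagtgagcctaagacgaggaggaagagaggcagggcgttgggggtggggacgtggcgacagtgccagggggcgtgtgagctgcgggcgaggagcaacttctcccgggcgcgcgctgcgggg
The Gab1 window held 24 CpG and 2 GC boxes, the Smarca5 window 29 CpG and 1 GC box, the Usp38 window 22 CpG and 3 GC boxes, and the Inpp4b window 19 CpG and no GC box. Of 32851 promoter windows of the same length, 32.7% held at least 1 GC box and 16.7% at least 2. The median was 6 CpG per window, and 12% of windows held at least as many CpG as that of Gab1. All 4 windows thus held more CpG than the median. A match of letters is a description of the window and no evidence of a bound factor.

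Exon columns summed to between 12236493 and 26369773 counts in the wtSRCAP and cdSRCAP libraries and between 17540823 and 60214521 in the others. The 8 ES cell markers (Pou5f1, Sox2, Nanog, Esrrb, Zfp42, Klf4, Tdgf1 and Dppa5a) summed to between 1513 and 4435 exon CPM (counts scaled to 1000000 per library) in all libraries. In the same libraries, the fibroblast list summed to at most 46.56 CPM, the primitive endoderm list to at most 11.84 CPM and the neural list to at most 32.09 CPM. The targeted gene, Srcap, was measured at 48.91 to 52 CPM in wtSRCAP control, 59.16 to 60.17 CPM in cdSRCAP control and 39.88 to 45.81 CPM in SYAT control libraries. These exon reads pool endogenous and doxycycline-driven transcripts, and degradation acts on the protein, so they do not check the labels. Intron columns of the SYAT time course and EG1 libraries also held exonic reads, since 40.4 to 49.8% of single-exon genes had intron counts there, against at most 0.1% in the other libraries.

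Gab1 exon RNA was low in the cdSRCAP line, intermediate in the wtSRCAP line and high in CGR8 and SYAT cells. CPM values were scaled with TMM factors within each table. wtSRCAP control libraries had 106.7 and 130.1 CPM of Gab1, and wtSRCAP IAA libraries had 141.3 CPM in both. cdSRCAP control libraries had 11.3 and 20.25 CPM, and cdSRCAP IAA libraries had 13.44 and 15.79 CPM. Every cdSRCAP library was far below every wtSRCAP library, and the lines did not overlap. The cdSRCAP values rested on 150 to 523 counts per library. In bulk RNA, fewer cells of a type and less RNA per cell cannot be told apart. Over the same libraries, the ES cell markers summed to 2470 to 3390 CPM in the wtSRCAP line and 2894 to 4404 CPM in the cdSRCAP line, and the 3 primitive endoderm markers (Gata6, Sox17 and Gata4) to 0.9389 to 1.268 and 1.66 to 3.291 CPM. The 3 fibroblast markers (Col1a1, Col1a2 and Thy1) summed to 4.986 to 12.09 and 6.477 to 8.682 CPM, and the 3 neural markers (Sox1, Pax6 and Neurog1) to 8.537 to 17.27 and 11.42 to 25.84 CPM. Col1a2, Gata6, Sox17 and Neurog1 were under 1 CPM in all 8 libraries. The part of these markers in the Gab1 difference was not tested.

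The fitted log2 fold change of Gab1, cdSRCAP against wtSRCAP, was -2.90 with a standard error (SE) of 0.297 in control cells, 13.4% of the wtSRCAP level. With IAA it was -3.27 (SE 0.302), 10.4% of the wtSRCAP level. Among the 10337 genes with a mean of at least 100 exon counts in this table, Gab1 was the lowest in cdSRCAP against wtSRCAP in both treatments. Sgce and Krt8 came next in control cells, and Krt19 and Col5a2 with IAA. Over all 19111 genes tested in exons, Gab1 was number 20 from the lowest in control cells and number 14 with IAA. Over all 12702 tested in introns, it was number 50 and number 84. Gab1 was chosen on this contrast, so these ranks are a description.

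The intron column, which reflects unspliced nuclear RNA, showed the same order. Gab1 introns stood at 450.4 and 377.4 CPM in wtSRCAP control and at 486.5 and 413.4 CPM in wtSRCAP IAA libraries. cdSRCAP control libraries had 61.57 and 85.85 CPM, and cdSRCAP IAA libraries had 83.1 and 90.22 CPM. Again no cdSRCAP library reached the lowest wtSRCAP library. The log2 fold change was -2.49 (SE 0.197) in control cells and -2.37 (SE 0.196) with IAA, 17.9% and 19.3% of the wtSRCAP level. Both unspliced and exonic Gab1 RNA were thus low in this clone.

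**Figure D1:**
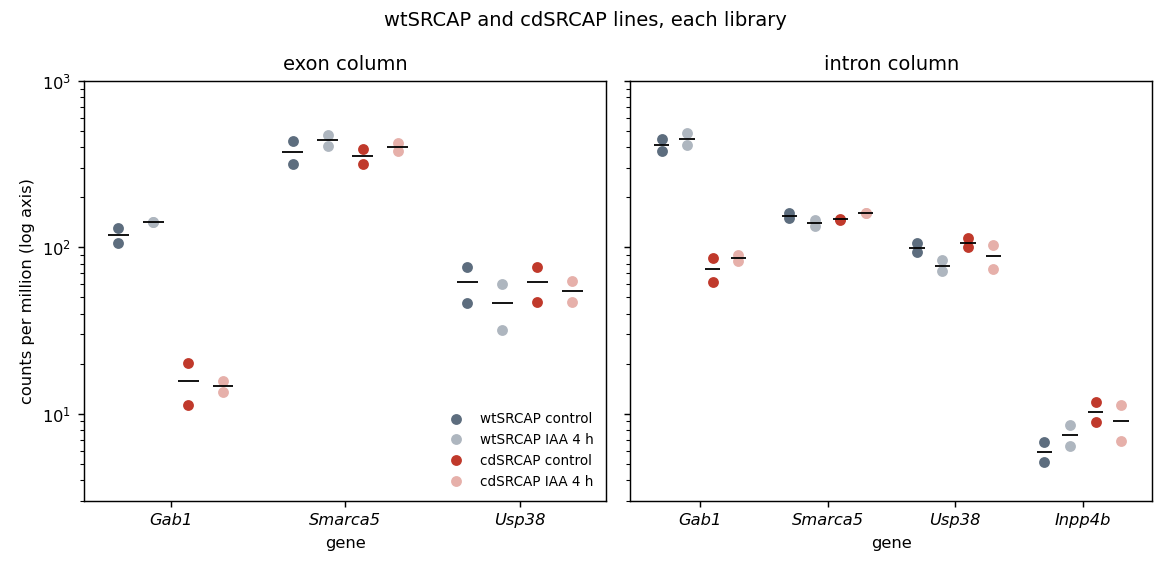
TMM-scaled CPM (log axis) of the 4 genes in each wtSRCAP and cdSRCAP library, exon column on the left and intron column on the right. Points are libraries, 2 per condition, and lines are their means. Gab1 is between 11.3 and 20.25 exon CPM in the cdSRCAP line and between 106.7 and 141.3 in the wtSRCAP line, while Smarca5 and Usp38 libraries of both lines overlap. Inpp4b is left out of the exon panel because it had at most 12 exon counts in any library.

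Smarca5, the nearest neighbour, stood close to 0 between the lines. Its exon level was 318.4 and 433.5 CPM in wtSRCAP control and 315.6 and 390.6 CPM in cdSRCAP control libraries, and the groups overlapped. With IAA it was 406 and 476.8 CPM in the wtSRCAP line and 380.1 and 422.2 CPM in the cdSRCAP line. The log2 fold change between lines was -0.09 (SE 0.233) in control cells and -0.14 (SE 0.233) with IAA. In introns it was -0.07 (SE 0.138) and 0.19 (SE 0.139).

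Usp38 was as close between the lines. Control libraries had 46.43 and 76.65 CPM of Usp38 exon counts in the wtSRCAP line and 46.84 and 76.24 CPM in the cdSRCAP line. The spread within each line was far wider than the distance between their means, 61.54 CPM in both. The log2 fold change between lines was 0.00 (SE 0.377) in control exons, 0.24 (SE 0.378) in IAA exons, 0.10 (SE 0.2) in control introns and 0.19 (SE 0.203) in IAA introns.

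Inpp4b was barely measured. Its exon column held 0 counts in 7 of the 30 libraries and at most 12 in any, and a count of 0 allowed up to 0.245 CPM (3 counts, counting error only). In exons, the 4 wtSRCAP libraries held 0 to 2 counts of Inpp4b and the 4 cdSRCAP libraries 2 to 12, too few for the test. Its introns, spread over a long gene body, gave 6.739 and 5.104 CPM in wtSRCAP control and 8.941 and 11.7 CPM in cdSRCAP control libraries. These groups did not overlap, with cdSRCAP higher, at a log2 fold change of 0.80 (SE 0.466). With IAA they did overlap, at 6.373 and 8.583 CPM against 6.863 and 11.23 CPM, and the log2 fold change was 0.26 (SE 0.467). The direction was opposite to that of Gab1 in both treatments, and both values lay within 2 SE of 0.

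None of the other genes of the region passed the limits used for all genes, an absolute log2 fold change over 0.5 and an edgeR adjusted p under 0.05. Gab1 did not pass them in control exons either, where no gene did, so the limits do not set Gab1 apart from its neighbours there. Of 63 annotated genes within 2 Mb of Gab1, 21 besides Gab1 passed the filter on low exon counts and 17 in introns. The share of all genes past the limits was 0% in control exons, 0.00523% in IAA exons, 0.102% in control introns and 0.0157% in IAA introns. In each of the 4 fits, 1 of the genes besides Gab1 had an unadjusted p under 0.05 by edgeR, where 3.82%, 5.03%, 7.07% and 10.2% of all genes did, and DESeq2 put none past the limits. Without Gab1, the median log2 fold change of the region was 0.00 in control exons, beside -0.02 over all genes, and 0.03 in control introns, beside 0.03 over all genes. With IAA it was 0.07 in exons, beside 0.03, and 0.09 in introns, beside -0.01.

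The well measured neighbours lay close to 0. The 10 with a mean of at least 100 exon counts (Lsm6, Zfp827, Smad1, Otud4, Tpd52-ps, Abce1, Anapc10, Smarca5, Usp38 and Zfp330) had control log2 fold changes between -0.28 and 0.00, and between -0.22 and 0.24 with IAA. Abce1, a ribosome recycling factor, stood at -0.22 (SE 0.554) in control exons, and Smad1, which carries BMP signals, at -0.04 (SE 0.226). In introns the genes above that level ranged from -0.18 to 0.21 in control cells and from -0.27 to 0.19 with IAA.

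The 1 other gene of the region with exon log2 fold changes below -1 was Gm7997, the pseudogene within the Gab1 body. It had 21, 15, 11 and 20 exon counts in the wtSRCAP libraries and 1, 2, 1 and 8 in the cdSRCAP libraries. Its log2 fold change was -3.61 (SE 1.07) in control cells and -2.09 (SE 0.939) with IAA. Its counts were low throughout, and whether they belong to Gab1 transcripts was not tested. Outside the Gab1 body, the lowest value of the region was -0.28 in control exons and -0.39 in control introns. With IAA it was -0.86 in exons and -1.27 in introns, both from genes with a mean under 100 counts. Hhip, an antagonist of hedgehog ligands 706.4 kb from Gab1, had the highest value in introns, 1.76 (SE 0.513) in control cells and 1.22 (SE 0.496) with IAA, on a mean of 53.88 counts. In exons it stood at 0.77 (SE 0.512) and 0.87 (SE 0.519). The direction of Hhip was opposite to that of Gab1. Gm5909, a processed pseudogene on a mean of 16.88 counts, stood at 1.34 (SE 0.726) in control exons and 0.17 (SE 0.757) with IAA.

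**Figure D2:**
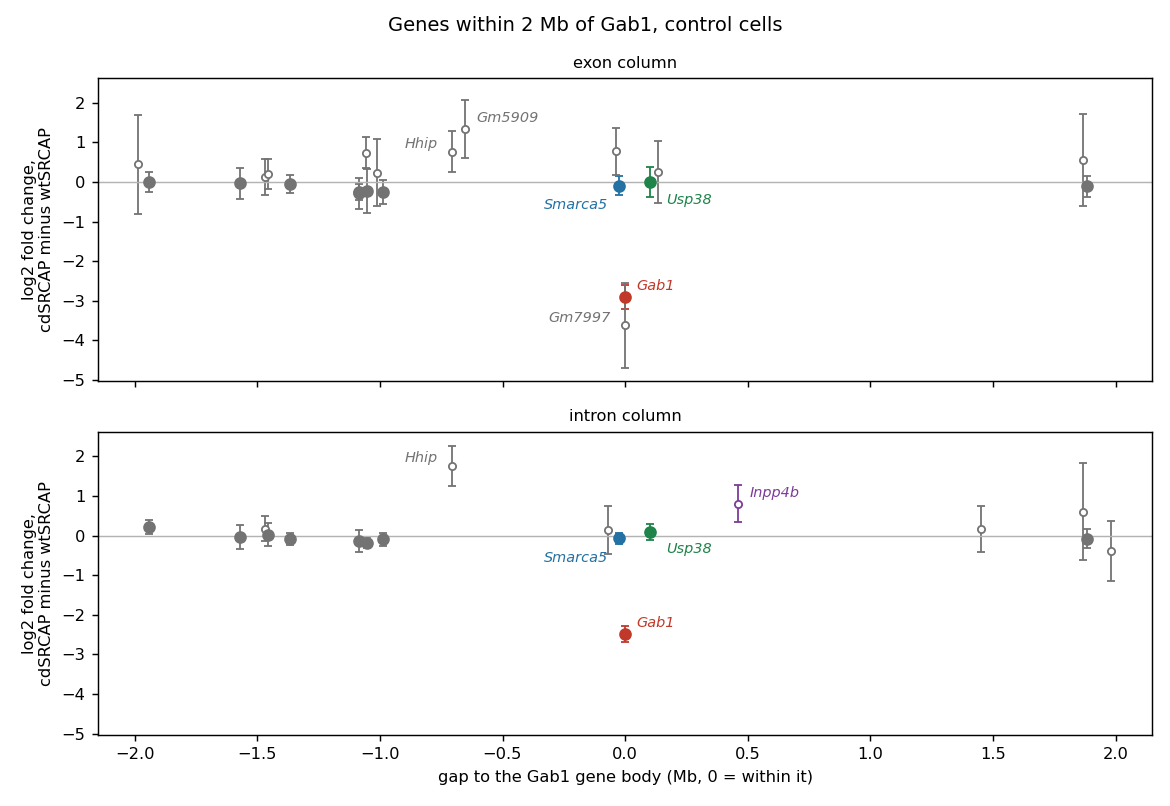
Log2 fold change, cdSRCAP against wtSRCAP in control cells, of the genes within 2 Mb of Gab1 that passed the filter, against their gap to the Gab1 gene body in Mb, exon column above and intron column below. Bars are SE, and filled points have a mean of at least 100 counts. Gab1 stands at -2.90 in exons and -2.49 in introns, Gm7997 inside it at -3.61, and the well measured neighbours within 0.28 of 0 in exons.

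Gab1 in the wtSRCAP line was itself below its level in the SYAT cells from which the line was made. These levels come from separate count tables, so line, clone, doxycycline, sorting for mCherry and sequencing run cannot be told apart, and no test was made. SYAT control libraries had 318.8 and 396.1 CPM of Gab1, and all 10 time course libraries lay between 318.8 and 422.2 CPM. Per length (RPKM, the CPM divided by kilobases of exon), Gab1 stood at 70.34 in SYAT control, 23.29 in wtSRCAP control and 3.104 in cdSRCAP control cells. With 0.5 CPM added, wtSRCAP control was at 33.2% of SYAT control and cdSRCAP control at 4.55%.

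Over the 8992 genes with at least 10 CPM in SYAT control cells, the median log2 ratio (with 0.5 CPM added) was -0.10 for wtSRCAP and -0.18 for cdSRCAP control against SYAT control. The ratio of Gab1 was -1.59 in wtSRCAP, and 1.06% of genes were as low or lower, where 4.31% of genes were below -1. In cdSRCAP it was -4.46, the lowest of all 8992 genes, where 6.41% of genes were below -1. The next lowest were the mitochondrial ribosomal RNA genes mt-Rnr1, at -4.43, and mt-Rnr2, at -4.03. Smarca5 stood at -0.15 and -0.24, and Usp38 at -0.19 in both lines, close to the median gene. Gab1 in CGR8 control was at 0.30 and in LG1 control at -0.38 against SYAT control, where 4.68% and 2.29% of genes were below -1.

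**Figure D3:**
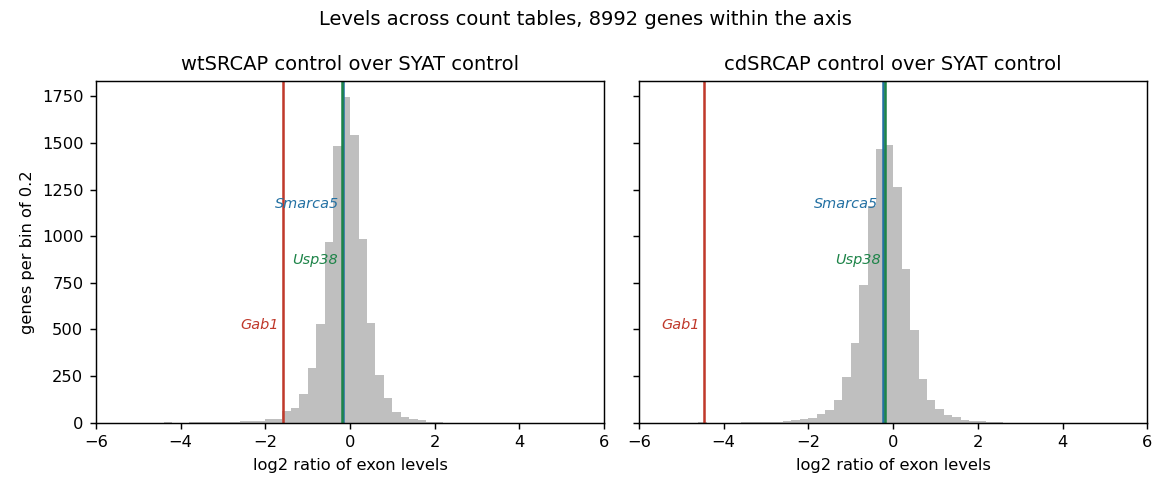
Distribution of the log2 ratio of exon levels (CPM with 0.5 added) over 8992 genes, wtSRCAP control over SYAT control on the left and cdSRCAP control over SYAT control on the right, in bins of 0.2. Vertical lines mark Gab1 at -1.59 and -4.46, Smarca5 at -0.15 and -0.24, and Usp38 at -0.19 in both. Gab1 lies in the lower tail on the left and at the lowest end on the right.

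Introns also put the cdSRCAP line lowest and the wtSRCAP line next, in columns that held no exonic reads. Gab1 introns had 1197 and 1359 CPM in CGR8 control, 1005 and 899 CPM in LG1 control, 450.4 and 377.4 CPM in wtSRCAP control and 61.57 and 85.85 CPM in cdSRCAP control libraries. The wtSRCAP and cdSRCAP groups overlapped neither each other nor CGR8 or LG1 control. LG1 libraries were scaled together with EG1 columns that held exonic reads, so LG1 and CGR8 levels are not ordered here. Smarca5 introns, in contrast, averaged between 144.9 and 154.8 CPM in the same 4 groups, and Usp38 introns between 99.7 and 111.7 CPM.

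Ordered by mean exon level, the 15 conditions ran from cdSRCAP IAA (14.61 ± 1.659 CPM, SD, n = 2) and cdSRCAP control (15.77 ± 6.331 CPM), which overlapped, through wtSRCAP control (118.4 ± 16.5 CPM) and wtSRCAP IAA (141.3 ± 0.03394 CPM). The 4 sorted conditions followed, from 246.7 ± 46.76 CPM in EG1 control to 292.8 ± 53.59 CPM in LG1 IAA. The SYAT time course came next, from 350.5 ± 40.43 CPM at 8 h of IAA to 381.4 ± 57.62 CPM at 4 h. CGR8 control (440 ± 17.87 CPM) and CGR8 IAA (499.8 ± 1.347 CPM) were the highest. The 4 sorted conditions overlapped among themselves, as did the 5 of the time course, and no order can be read within either set. All libraries of EG1 control, EG1 IAA and LG1 control lay below the lowest time course library, while LG1 IAA overlapped the time course. In the time course, the replicate 1 libraries of all 5 conditions lay between 318.8 and 340.7 CPM and the replicate 2 libraries between 379.1 and 422.2 CPM. The ranges of both replicates did not overlap, whereas those of the time points did.

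**Figure D4:**
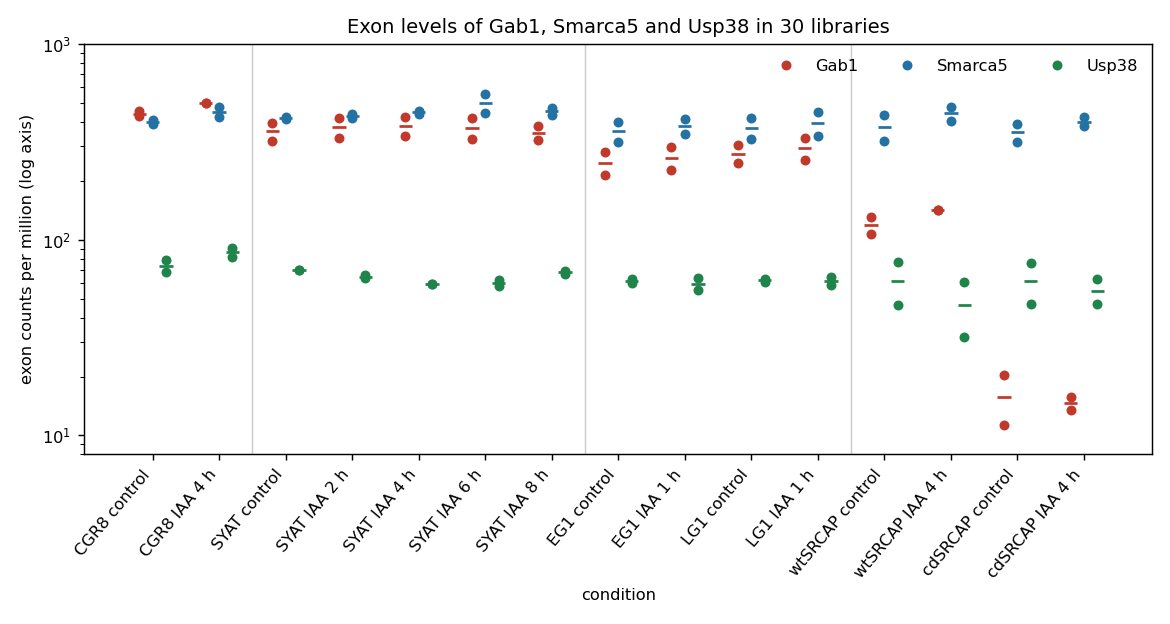
TMM-scaled exon CPM (log axis) of Gab1, Smarca5 and Usp38 in all 30 libraries, by condition. Points are libraries, short lines are means of 2, and vertical lines separate the 4 count tables, which were scaled separately. Gab1 falls from 427.3 CPM or more in CGR8 cells to 20.25 CPM or less in the cdSRCAP line, while Smarca5 stays between 315.6 and 557.2 CPM and Usp38 between 31.8 and 90.75 CPM.

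IAA did not move Gab1 past the limits in SYAT cells. After 2, 4, 6 and 8 h, the log2 fold change of Gab1 exons against control was 0.07, 0.09, 0.06 and -0.03, each with an SE of 0.188. At 4 h an approximate 95% interval, a fixed number of SE on either side, ran from -0.28 to 0.46. Libraries of every time point overlapped those of the control, and 7 of 8 IAA libraries were above the control library of the same replicate number. All 8 were set against the same control libraries, so this count is a description. At 4 h they had 340.7 and 422.2 CPM, against 318.8 and 396.1 CPM in control libraries. The fit had no replicate term, so the SE, the interval and the overlap include the offset between replicate 1 and replicate 2 libraries. They therefore cannot decide whether both replicates shared a small response. In introns the 4 values were 0.16, 0.23, 0.17 and 0.21, each with an SE of 0.318, in columns that also held exonic reads. By edgeR's quasi-likelihood test with Benjamini-Hochberg adjustment over all genes, the adjusted p of Gab1 was at least 0.833 at every time.

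None of the 4 genes passed the limits in the time course. In exons, 0% of 19205 genes passed at 2 h, 0% at 4 h, 0.0677% at 6 h and 0.00521% at 8 h, and in introns 0%, 0%, 0.0136% and 0.00679% of 14719 genes. No gene passed at 2 and 4 h, so the limits cannot set the 4 genes apart there. At 6 h DESeq2 called 391 genes lower and 248 higher in exons, and 331 and 231 in introns, none of them a member. Smarca5 was highest at 6 h, with 443.8 and 557.2 CPM against 412.4 and 424.6 CPM in control libraries. Both 6 h libraries were above both control libraries, and the log2 fold change was 0.26 (SE 0.132, edgeR adjusted p = 0.364). Usp38 was lowest at 4 h, with 59.6 and 59.32 CPM against 69.85 and 70.18 CPM in control libraries. The groups did not overlap, and the log2 fold change was -0.24 (SE 0.118, edgeR adjusted p = 0.612). How many of all genes had groups without overlap was not counted, so such separation is a description. Usp38 exons lay below control at all 4 times, down to -0.04 at 8 h, but no value passed. Inpp4b introns ranged from -0.29 (SE 0.463) at 2 h to 0.22 (SE 0.454) at 8 h on 15 to 54 counts per library.

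IAA for 4 h did not move Gab1 past the limits in the wtSRCAP or cdSRCAP line. The log2 fold change of Gab1 exons was 0.25 (SE 0.275) in wtSRCAP and -0.12 (SE 0.282) in cdSRCAP cells, with edgeR adjusted p of 0.896 and 0.996. In introns it was 0.12 (SE 0.185) and 0.23 (SE 0.192). Both wtSRCAP IAA libraries exceeded both control libraries in exons, while the cdSRCAP libraries overlapped. The difference between the responses, cdSRCAP minus wtSRCAP, was -0.37 (SE 0.394) in exons and 0.11 (SE 0.266) in introns, with an edgeR adjusted p of 1 in both. Their signs were opposite, and neither exceeded 1 SE.

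No member passed the limits for the IAA response in these lines. In exons 0.00523% of 19111 genes passed in wtSRCAP and 0% in cdSRCAP cells, and in introns 0.299% and 0.236% of 12702 genes. For the difference between the responses no member passed an adjusted p of 0.05, and 0% of all genes did in exons and in introns. Where no gene passed, the limits cannot set a member apart. Of the responses tested for the 4 genes in these lines, that of Usp38 exons in wtSRCAP cells was farthest from 0. Usp38 exons had 46.43 and 76.65 CPM in wtSRCAP control and 31.8 and 60.6 CPM in wtSRCAP IAA libraries, which overlapped, at a log2 fold change of -0.41 (SE 0.379, edgeR adjusted p = 0.866). Its introns went from 93.5 and 105.9 CPM to 72.22 and 83.45 CPM in the wtSRCAP line, a log2 fold change of -0.35 (SE 0.204, edgeR adjusted p = 0.511). In the cdSRCAP line they went from 99.89 and 113.4 CPM to 74.52 and 103.7 CPM, a log2 fold change of -0.26 (SE 0.2, edgeR adjusted p = 0.71). The wtSRCAP intron groups did not overlap, and the cdSRCAP intron groups did. Inpp4b introns stood at 0.36 (SE 0.48) in wtSRCAP and -0.19 (SE 0.451) in cdSRCAP cells, a difference of -0.54 (SE 0.658).

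In sorted cells, 1 h of IAA did not move Gab1 past the limits used there. Gab1 exons had 213.6 and 279.8 CPM in EG1 control and 228.1 and 296.3 CPM in EG1 IAA libraries. LG1 control libraries had 246.8 and 303.1 CPM, and LG1 IAA libraries 254.9 and 330.7 CPM. The groups overlapped in both phases, while in 4 of 4 cases the IAA library was above the control library of the same replicate number. The log2 fold change was 0.09 (SE 0.22) in each, and the difference between phases was -0.00 (SE 0.311). In introns it was -0.15 (SE 0.241) in EG1, where the columns held exonic reads, and 0.19 (SE 0.241) in LG1.

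With the limits used for sorted cells, an absolute log2 fold change over 0.25 and an unadjusted p under 0.05, no member was called. These limits were passed by 1.22% of 21020 genes in EG1 exons, 1.02% in LG1 exons, 2.28% of 17441 genes in EG1 introns and 3.94% in LG1 introns. For the difference between the responses, 0% of genes passed an adjusted p of 0.05. Between the phases in control cells, Gab1 exons differed by -0.16 (SE 0.22, EG1 against LG1), Smarca5 by -0.06 (SE 0.212) and Usp38 by -0.01 (SE 0.13), and 0% of genes passed.

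In CGR8 cells, which have no degron, Gab1 exons had 427.3 and 452.6 CPM in control and 500.7 and 498.8 CPM in IAA libraries. Both IAA libraries exceeded both controls, yet the log2 fold change of 0.18 (SE 0.12) had an edgeR adjusted p of 0.663, and in introns it was 0.02 (SE 0.14). Inpp4b introns had 4.898 and 7.613 CPM in control and 14.7 and 19.14 CPM in IAA libraries, and the groups did not overlap. The log2 fold change was 1.42 (SE 0.446, edgeR adjusted p = 0.916). Inpp4b exons, on at most 12 counts, stood at 2.17 (SE 1.54). Of 64 values of the 4 genes over the 9 IAA comparisons, the intron value of Inpp4b was the 1 with an unadjusted p under 0.05, and DESeq2 called none. By edgeR, 715 of 13634 genes had such a p in CGR8 introns. Outside the sorted cells, 9.28% of exon and 10.2% of intron values of all genes did. No member passed, where 0.00988% of 20250 genes did in exons and 0.022% of 13634 genes in introns. Without replicate 2 of CGR8 control, Inpp4b (1.79) and Smarca5 (0.54, from 0.36 with an SE of 0.16) passed in introns. In cells with the degron, Inpp4b introns ranged from -0.29 to 0.36 and none had an unadjusted p under 0.05.

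**Figure D5:**
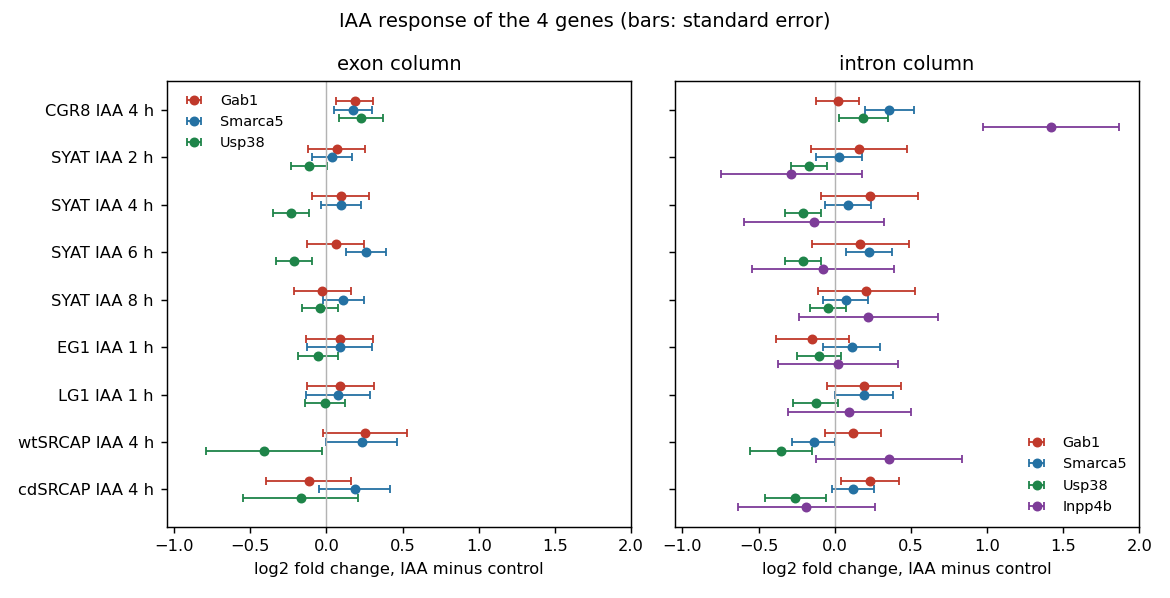
Log2 fold change, IAA against its own control, of the 4 genes in the 9 IAA comparisons, exon column on the left and intron column on the right, with SE bars. Inpp4b is in the intron panel only. Gab1 lies between -0.15 and 0.25 in all 18 values, and the value farthest from 0 in the intron panel is that of Inpp4b in CGR8 cells, at 1.42.

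Over the 9 IAA comparisons, Gab1 ranged from -0.12 to 0.25 in exons and from -0.15 to 0.23 in introns. Smarca5 exons were above control in 9 of 9 comparisons, from 0.03 to 0.26. Smarca5 introns ranged from -0.14 (SE 0.14) in wtSRCAP cells to 0.36 in CGR8 cells. Usp38 exons were below control in the 8 comparisons of cells with the degron, from -0.41 to -0.01, and above it in CGR8 cells, at 0.22 (SE 0.143). Comparisons of the time course share their control libraries, and the share of all genes with such a run of signs was not counted. These counts are therefore a description, and whether Usp38 responded differently in CGR8 cells was not tested.

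None of the closest paralogues passed the limits where Gab1 was low. Gab2 had at most 1.658 CPM and Gab3 at most 0.4485 CPM of exon counts in the 8 wtSRCAP and cdSRCAP libraries. Gab2 averaged 0.6547 CPM in wtSRCAP control and 0.7595 CPM in cdSRCAP control cells. Per kilobase of exon, Gab1 in cdSRCAP control, at 3.104 RPKM, was above Gab2 at 0.1231 RPKM and Gab3 at 0.04866 RPKM. Smarca1, the other ISWI ATPase, averaged 24.18 and 22.33 CPM in wtSRCAP and cdSRCAP control, Usp35 7.617 and 5.995 CPM, and Inpp4a 14.9 and 22.76 CPM. Inpp4a stood at 0.61 (SE 0.317). Gab3 introns had 6.177 and 2.807 CPM in wtSRCAP control and 9.963 and 16.85 CPM in cdSRCAP control libraries, on 11 to 85 counts. These groups did not overlap, and the log2 fold change was 1.58 (SE 0.622, edgeR adjusted p = 0.633). With IAA it was 1.14 (SE 0.681). Of the 4 paralogues tested in exons, 0 had an unadjusted p under 0.05 in control cells, beside 3.82% of all genes, and 1 with IAA, beside 5.03%. Of the 5 tested in introns it was 1 in control cells, beside 7.07%, and 1 with IAA, beside 10.2%. DESeq2 put 0 past the limits in each. In the IAA comparisons outside the sorted cells, edgeR called none of their values. There, 3 of 29 exon values (10.3%) and 6 of 27 intron values (22.2%) had an unadjusted p under 0.05, beside 9.28% and 10.2%. DESeq2 called Inpp4a in 1 of the 27 intron values (3.7%), beside 1.82% over all genes, and no exon value.

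None of the genes listed as acting with GAB1 passed the limits between the lines in exons or introns. Of 32 genes of receptors, adaptors and effectors around GAB1, all 32 were tested in control exons and 0 were past the limits in cdSRCAP against wtSRCAP, where 0% of all genes were. Their median log2 fold change was -0.01, beside -0.02 over all genes. The largest values were those of Pdgfra, a PDGF receptor on a mean of 6.5 counts, at 1.90 (SE 1.41), Spry4, an ERK-induced inhibitor, at 0.55 (SE 0.186), Mapk3, which encodes ERK1, at -0.51 (SE 0.308), and Kit, the receptor of stem cell factor, at 0.49 (SE 0.217). By edgeR, 2 of the 32 (6.25%) had an unadjusted p under 0.05, beside 3.82% of all genes, and DESeq2 put 0 past the limits. In IAA exons it was 1 of 32, beside 5.03%. In introns 5 of 30 (16.7%) had an unadjusted p under 0.05 in control cells, beside 7.07% of all genes, and 5 of 30 with IAA, beside 10.2%, and DESeq2 put 0 past the limits in each. In the IAA comparisons outside the sorted cells, edgeR called 0 of 224 exon values and 0 of 214 intron values of the list, with 22 (9.82%) and 19 (8.88%) at an unadjusted p under 0.05, beside 9.28% and 10.2% of the values of all genes. DESeq2 called 0 and 7 (3.27%), beside 1.1% and 1.82% of the values of all genes. The 7 intron calls were of Fgfr2, Insr, Lifr and Pik3r1.

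Of 8 further phosphoinositide phosphatases, 0 passed in control exons between the lines, with a median of -0.02 and Inppl1 the largest at -0.66 (SE 0.363). Of 9 ISWI partner genes 0 passed, with a median of -0.06, and Baz1a, a subunit of the ACF remodelling complex, was the largest at -0.83 (SE 0.479). In control exons 0 of either list had an unadjusted p under 0.05 by edgeR, beside 3.82% of all genes, and 0 passed by DESeq2. In IAA exons 1 of 8 phosphatases and 0 of 9 partners had such a p, beside 5.03%. In control and IAA introns it was 1 of 7 partners each, beside 7.07% and 10.2%, and 0 of 7 phosphatases. For IAA outside the sorted cells, DESeq2 called Baz1a in 1 of 63 exon and 1 of 57 intron values of the partners, beside 1.1% and 1.82% over all genes, and 0 phosphatases. In LG1 introns, at the looser limits passed by 3.94% of genes, Lifr (0.50), Inppl1 (0.38) and Baz1a (0.36) were called higher with IAA, each with an edgeR adjusted p of 1. In EG1 introns, where 2.28% of genes passed and the columns held exonic reads, Inpp5e was called higher and Usp35 lower, also with an adjusted p of 1. Each rested on 1 library, with 30 counts of Inpp5e in IAA replicate 1 and 80 of Usp35 in control replicate 1, and 0 in the other 3 EG1 libraries.

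The genes most like Gab1 over the 8 wtSRCAP and cdSRCAP libraries, by Pearson correlation of log2 exon levels among 10337 genes, were Hyal2 (0.977), Acrbp (0.975), Itpripl1 (0.973), Cnpy2 (0.972) and Prss8 (0.97). None of the 5 lies on chromosome 8, and their log2 fold changes between the lines in control cells ranged from -1.42 for Prss8 to -0.56 for Itpripl1, all smaller than that of Gab1. Smarca5 had a correlation of 0.382 and Usp38 of -0.121 with Gab1 over the same libraries. Over the 10 time course libraries, the 5 most like Gab1 were Mdc1 (0.976), Tns3 (0.975), Dppa3 (0.974), Spn (0.972) and Mcm10 (0.972). Smarca5 stood at 0.325 and Usp38 at -0.328 there. The libraries of each set share line, treatment and replicate number, so these correlations are descriptions, and the lists had no gene in common.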

How the data were processed

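Nuclear RNA-seq libraries (2 per condition) were taken from 4 deposited count tables. The authors used STAR (mm10), then featureCounts over exons and introns (gene bodies minus exons) of GENCODE vM25, and deposited raw counts, one exon and one intron column per library. Their notes also name SAMtools 1.10, Picard and DESeq2.

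Each table and column was fitted whole with edgeR 4.0.16 (glmQLFit, glmQLFTest; R 4.3.3) after filterByExpr (minimum count 10, total 15) and TMM scaling, without a replicate term, and p-values were adjusted by Benjamini-Hochberg over all genes tested. Members and gene lists were chosen with earlier results of these data known. Named genes were the members, the genes within 2 Mb of Gab1 passing the exon filter, the paralogues, the genes most like Gab1, and list members that were called or else had the largest changes. Groups came from the labels. Gene positions and overlaps came from GENCODE vM21 on GRCm38, where 55141 of 55401 identifiers matched without their version. The step was tested on simulated data. Alternatives were DESeq2 1.42.0, RLE scaling, no filter, a replicate block, only the compared groups, leaving out each library, intron minus exon columns, other windows and Spearman correlation. With 2 numbers per group, replicate numbers were not taken to pair libraries. p-values rest on a spread between replicates that is pooled over all groups of a table, each with 2 replicates. Whether groups overlapped is given as a description, since the share of all genes without overlap was not counted.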

Additional observations from a re-analysis of the deposited data

How the results depend on the processing

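Gab1 was lower in cdSRCAP than in wtSRCAP cells under every alternative run. Leaving out each library in turn gave -3.41 to -2.54 in control exons, -3.39 to -3.18 in IAA exons, -2.75 to -2.31 in control introns and -2.48 to -2.24 in IAA introns. Gab1 was chosen on this contrast, so the counts of members past the limits that follow describe the fits and test nothing. The count in control exons was 0, and 1 with RLE scaling, without the filter, with the replicate block and with DESeq2. In IAA exons it was 1, and 0 with only the compared groups, where fewer libraries set the spread. Leaving out a library gave 0 to 1 in IAA exons, control introns and IAA introns, and 0 to 2 in the CGR8 introns. The cause was not tested. In cdSRCAP against wtSRCAP, genes past the limits besides Gab1 were 0 in the 1 Mb and 5 Mb windows, as in that of 2 Mb.

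No alternative other than leaving out a library gave a member an IAA call. The replicate block changed no other call of the 4 genes. Deviations of same-numbered libraries correlated at 0.372 to 0.586 in sorted-cell exons, and with the block Gab1 exons stood at 0.09 in EG1 and in LG1 (edgeR adjusted p = 0.745 and 0.842). Across the 9 comparisons outside the sorted cells, the counts over all genes were 0 to 13 in exons and 0 to 38 in introns, 0 to 823 and 0 to 320 with the block, 8 to 639 and 44 to 562 with DESeq2, and 8 to 885 and 13 to 468 without the filter. In the sorted cells they were 0 to 257 and 397 to 688, and 152 to 1269 and 754 to 1573 with the block.

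Near 0, signs turned. The Gab1 difference between EG1 and LG1 responses, -0.00, was 0.01 with RLE scaling, 0.04 without the filter, 0 with the replicate block and 0.01 with DESeq2. Leaving out a library, Gab1 exons ranged from -0.11 to 0.23 at 2 h, -0.07 to 0.26 at 4 h, -0.13 to 0.23 at 6 h and -0.18 to 0.13 at 8 h, and introns from -0.07 to 0.38, -0.14 to 0.51, -0.03 to 0.39 and -0.22 to 0.55. The ranges were -0.1 to 0.12 in CGR8 introns, -0.11 to 0.3 and -0.34 to 0.03 in EG1 exons and introns, -0.09 to 0.27 and -0.12 to 0.45 in LG1, -0.21 to 0.21 for the difference between EG1 and LG1, and -0.37 to 0.04 for EG1 against LG1 control. They were -0.47 to 0.39 in cdSRCAP exons, -0.01 to 0.25 in wtSRCAP introns, and -0.72 to 0.14 in exons and -0.04 to 0.39 in introns for the difference between both lines. By Spearman correlation, 1 of the 5 genes most like Gab1 remained in each set. Inpp4b exons were too shallow to compare.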

Other observations

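The ratio of exon to intron counts of Gab1 differed between libraries of a condition. It was 1.027 and 1.936 in wtSRCAP control, 1.581 and 2.083 in wtSRCAP IAA, 0.622 and 1.208 in cdSRCAP control, 0.758 and 0.743 in cdSRCAP IAA, and 3.937 and 2.619 in CGR8 control libraries. Smarca5 moved with it, at 8.626 and 16.29 in wtSRCAP control and 7.327 and 13.433 in cdSRCAP control libraries, and Usp38 at 2.153 and 4.067 and at 1.591 and 3.442. Differences between exon and intron fold changes of these genes therefore rest on libraries that differed in their share of exonic reads.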
